A study of Mus musculus with 2 samples.

Results

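Nuclear genes of oxidative phosphorylation were followed across the cells of metastasis-bearing mouse lungs. The members are all genes whose symbol begins with Nduf, Uqcr, Atp5, Cox4, Cox5, Cox6, Cox7 or Cox8, together with Sdha, Sdhb, Sdhc and Sdhd, with symbols ending in -ps left out. This rule, which uses no measured value, gave 92 of the 27999 genes counted. Of these, 44 belong to complex I (36 subunits and 8 assembly factors), 4 to complex II, 8 to complex III, 20 to complex IV and 16 to complex V. Complex IV here holds 18 subunits, Ndufa4 among them, the Ndufa4 paralog Ndufa4l2 and the supercomplex factor Cox7a2l. Complex V holds 15 subunits and the coupling factor Atp5s. The 13 mt- genes, which mitochondrial DNA encodes, were summed beside them.

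Oxidative phosphorylation takes place in the inner mitochondrial membrane. Complexes I and II pass electrons from NADH and succinate to ubiquinone, complex III hands them on to cytochrome c, and complex IV gives them to oxygen, while complex V uses the resulting proton gradient to make ATP. Most subunits are nuclear genes, complex II is wholly nuclear, and a few subunits have paralogs used in particular tissues, such as the lung isoform Cox4i2 and the heart and skeletal muscle isoforms Cox6a2, Cox7a1 and Cox8b.

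Female FVB/NJ mice aged 10 weeks received 500000 Met-1 cells by tail vein, a carcinoma line of the mouse mammary gland that carries the PyMT oncogene, and whole lungs were dissociated for droplet single-cell RNA sequencing. The low-burden lung was taken at week 1 and the high-burden lung at week 3, from 1 mouse each, so burden, time after injection, mouse and library cannot be told apart. With 1 library per group there is no replicate check and no test, and every interval is a 95% interval that covers counting error only. A gene is called higher or lower when its level differs by at least 1.5-fold, and this is a description of these libraries.

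The libraries differed in depth. The low-burden library held 2668 barcodes with a median of 3971 unique molecular identifiers (UMIs) and the high-burden library 3121 barcodes with a median of 13795 UMIs, 3.47-fold more. After filters on genes detected and on mt- share, 2473 and 3033 cells remained, and marker gates placed 2110 and 2172 of them in classes, which are called X-like for the cell type whose markers they carry. The markers of every class were higher in it than in the rest of its library, but the gates select cells on these same markers. This is therefore no separate check of the class names. In the metastatic-like class, the carcinoma cells, 10 of 10 markers were higher but 0 of 10 by more than 5-fold. The libraries shared 11 barcodes, and doublets were kept. Some cells also met the gate of another class, among them 108 low-burden and 67 high-burden vascular endothelial-like cells, 52 of 81 smooth muscle-like cells, 32 of 33 mesothelial-like cells, and 16 of 20 ciliated-like, 233 of 729 C1q macrophage-like and 25 of 46 T-like cells of the high-burden library.

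The letters of 7 promoters are shown because the results below turn on these genes or on a paralog of one. Each stretch is the nearest 120 bases before the RefSeq start of the gene that lie outside annotated exons, from RefSeq on GRCm38.p6, read 5′ to 3′ on the strand of the gene. Capitals mark the letters of a motif searched on both strands, namely the CCAAT box, the letters GCGCANGCG of NRF1, the GC box GGGCGG and the letters TCAAGGTCA of ERR, so a motif on the opposite strand stands as its reverse complement. The first 3 are the genes of subunit c, which forms the proton-carrying ring of complex V.
Atp5g1, chr11:96075671-96075790, minus strand: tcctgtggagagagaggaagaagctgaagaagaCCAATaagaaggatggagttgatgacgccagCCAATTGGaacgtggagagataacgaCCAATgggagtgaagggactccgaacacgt
Atp5g2, chr15:102671128-102671247, minus strand: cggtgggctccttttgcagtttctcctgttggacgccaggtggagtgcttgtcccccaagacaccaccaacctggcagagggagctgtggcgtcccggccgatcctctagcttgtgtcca
Atp5g3, chr2:73911327-73911446, minus strand: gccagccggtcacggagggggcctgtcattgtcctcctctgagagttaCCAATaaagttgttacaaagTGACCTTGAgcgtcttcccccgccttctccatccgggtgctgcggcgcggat
Atp5h, chr11:115419963-115420082, minus strand: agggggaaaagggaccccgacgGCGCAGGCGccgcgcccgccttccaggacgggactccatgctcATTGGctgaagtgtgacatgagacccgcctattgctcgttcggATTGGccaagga
Cox5a, chr9:57521112-57521231, plus strand: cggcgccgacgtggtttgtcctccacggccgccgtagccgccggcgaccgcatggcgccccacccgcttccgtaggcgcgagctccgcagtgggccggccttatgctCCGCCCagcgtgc
Cox6b1, chr7:30626152-30626271, minus strand: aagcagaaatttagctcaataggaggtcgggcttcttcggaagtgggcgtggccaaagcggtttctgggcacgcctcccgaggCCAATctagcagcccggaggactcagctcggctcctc
Cox6b2, chr7:4753095-4753214, minus strand: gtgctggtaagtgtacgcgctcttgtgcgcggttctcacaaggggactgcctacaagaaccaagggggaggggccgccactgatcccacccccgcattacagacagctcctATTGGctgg
The 3 subunit c genes differ in these letters, with 3 CCAAT boxes on the gene strand for Atp5g1, 1 for Atp5g3 and none of the 8 motifs searched for Atp5g2, whose stretch lies within the annotated span of the gene. The stretches of Atp5g1, Atp5g2 and Atp5g3 end 39, 80 and 0 bases before the start, so they cover unlike positions. The 300-base windows described below hold more, with NRF1 and GC box letters for Atp5g2. Those of Atp5g1 hold CCAAT and CACGTG, and those of Atp5g3 hold NRF1, CCAAT, ERR and CACGTG letters. The match of Atp5g1 on the opposite strand overlaps one of its CCAAT boxes. The pair Cox6b1 and Cox6b2 each hold 1 CCAAT box, on opposite strands.

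All 92 members matched a RefSeq gene, and 76 had a promoter window of 300 bases, 250 before and 50 after the start. On either strand, the NRF1 letters GCGCANGCG were in 21 of the 76 windows (27.6%), against 6.47% of all 27025 windows of the same length. The YY1 letters AAGATGGCG were in 7 windows (9.21%, against 1.49% of all) and the ETS letters CCGGAAGT in 5 (6.58%, against 4.00%). At least 1 of these 3 was in 30 windows (39.5%, against 11.0%). NRF1, GABP (an ETS factor) and YY1 are known as regulators of respiratory chain genes, and a match of letters is a description, not a binding site. The other 5 motifs searched ranged from common to rare letters. CCAAT was in 34 windows (44.7%, against 37.9%) and GGGCGG in 34 (44.7%, against 35.9%). CACGTG was in 7 (9.21%, against 7.24%), TATAAA in 7 (9.21%, against 14.2%) and TCAAGGTCA in 2 (2.63%, against 0.407%). Median GC content was 57.8% in the member windows and 52.7% in all windows.

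The members took up a narrow range of RNA shares across lung cell classes. In the low-burden library their summed level was lowest in dendritic-like cells, at 1.72% of all UMIs, and highest in smooth muscle-like cells, at 2.74%, a 1.59-fold range over 13 classes. The next highest were alveolar macrophage-like cells at 2.65%, AT1-like cells (the flat gas-exchange cells) at 2.61% and ciliated-like cells at 2.51%. Vascular endothelial-like and NK-like cells both stood at 2.32%, monocyte-like cells at 2.27%, AT2-like cells (the surfactant-making epithelium) at 2.18% and T-like cells at 2.07%. Fibroblast-like and B-like cells both stood at 1.99% and C1q macrophage-like cells at 1.83%. Each level is a share of the RNA counted in a class, so more member RNA and less other RNA per cell cannot be told apart, nor can neighbours in this order be ranked beyond counting error. The ciliated-like value depends on how cells are weighted, since the median share per cell was 3.17% against the summed 2.51%. By that median ciliated-like cells stood highest, above smooth muscle-like cells at 2.70%, so the top class holds for the summed level only.

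In the high-burden library the order was led by metastatic-like cells at 3.60% of UMIs (interval 3.60% to 3.61%), with T-like cells at 3.16% and mesothelial-like cells at 3.01% next. C1q macrophage-like, ciliated-like, vascular endothelial-like and AT2-like cells stood at 2.94%, 2.85%, 2.81% and 2.72%. Fibroblast-like, dendritic-like and B-like cells were lowest at 2.64%, 2.33% and 2.23%. The range over 10 classes was 1.61-fold.

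The mt- genes did not follow the same order. In the low-burden library the summed mt- level ran from 2.26% in monocyte-like cells to 4.89% in smooth muscle-like cells, a 2.17-fold range, and over the 13 classes it correlated with the nuclear level at a Pearson r of 0.68 and a Spearman rho of 0.60. In the high-burden library mt- genes ranged 1.58-fold, and the correlation over 10 classes was near 0 (r of -0.004, rho of -0.08). These points share a library and a denominator, and the filter that removed cells over 10% mt- UMIs cuts the mt- share from above. The ratio of nuclear to mt- UMIs was 1.24 in T-like, 1.07 in mesothelial-like and 1.03 in metastatic-like cells of the high-burden library, and 1.01 in monocyte-like cells of the low-burden library, where it was otherwise below 1.

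**Figure D1:**
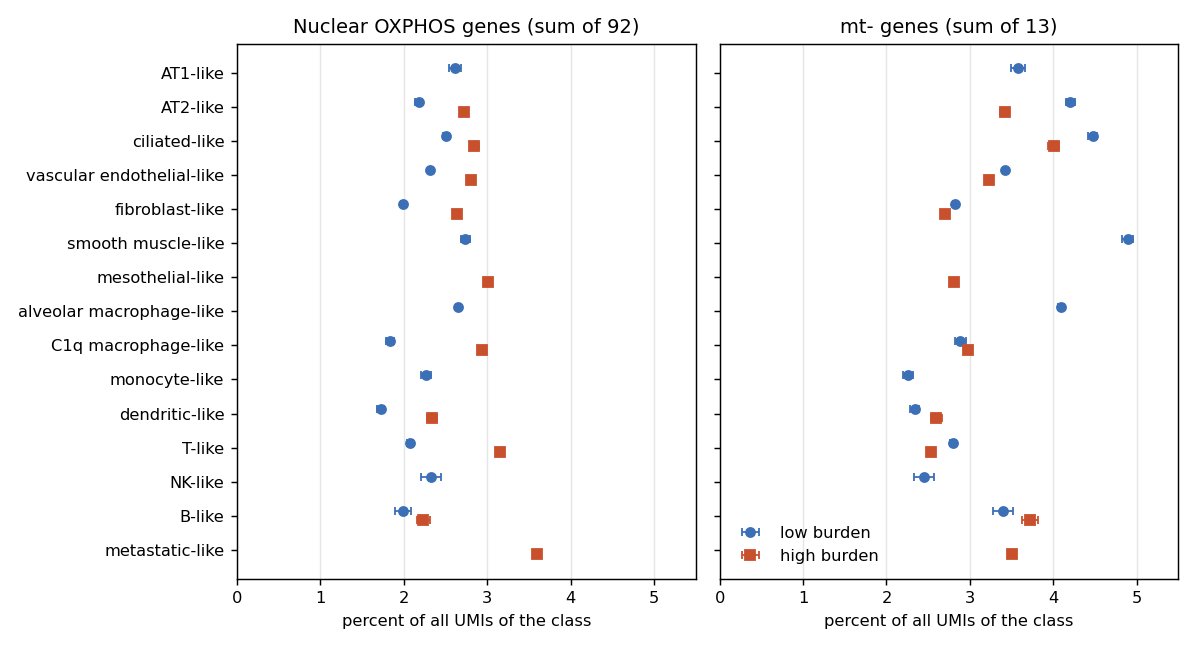
Summed level of the 92 nuclear members (left) and of the mt- genes (right), as a percent of all UMIs of a cell class, for each class and library, with exact 95% Poisson intervals. The nuclear level of each of the 8 classes found in both libraries is higher at high burden, and metastatic-like cells are the highest at 3.60%, while the mt- level has no common direction.

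The comparison of high with low burden asks how the same marker-gated class differed between the lung with few and the lung with extensive metastases. The mix of cell subtypes within a class can differ between the libraries, and its part in these ratios was not tested. The summed nuclear level was higher at high burden in 8 of 8 classes, with a median log2 ratio of 0.36. It went from 1.83% to 2.94% in C1q macrophage-like cells, a log2 ratio of 0.68 (0.64 to 0.72, 57 and 729 cells). In T-like cells it went from 2.07% to 3.16%, a log2 ratio of 0.61 (0.57 to 0.64, 142 and 46 cells). These are the only classes past 1.5-fold for the sum, at 1.61-fold and 1.52-fold. Dendritic-like cells (log2 ratio 0.44), fibroblast-like cells (0.41) and AT2-like cells (0.32) followed. Vascular endothelial-like cells stood at 0.28, ciliated-like cells at 0.18 and B-like cells at 0.17.

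Depth moved with this comparison. Among cells of 5000 to 8000 UMIs only, an alternative chosen after seeing the data, the T-like ratio was 0.18 (2.43% in 19 low-burden cells against 2.75% in 21 high-burden cells) and the C1q macrophage-like ratio was 0.56 (1.84% against 2.72%). The ciliated-like ratio was below 0 under 3 alternatives, at -0.07 with the mean of per-cell shares, -0.05 after thinning to 2000 UMIs and -0.03 without cells that met another gate. RNA of carcinoma cells moved with it too. The summed markers restricted to metastatic-like cells stood, in the other high-burden classes, between 7.51% (dendritic-like) and 26.9% (T-like) of their level in metastatic-like cells, with C1q macrophage-like cells at 8.01%, and at no more than 0.862% in the low-burden classes. With the metastatic-like profile subtracted at those shares the median over classes was 0.24, the C1q macrophage-like ratio 0.65 and the T-like ratio 0.52.

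The mt- genes had no common direction. Their summed level was lower at high burden in 5 of 8 classes and the median log2 ratio was -0.07, from -0.30 in AT2-like cells (42033 to 34180 CPM) to 0.15 in dendritic-like cells (23368 to 25994 CPM). It was lower in 4 of 8 classes with no cell filter (median 0.020) and in 3 of 8 without cytosolic ribosome genes in the total (median 0.018). The nuclear to mt- ratio therefore went from 0.518 to 0.796 in AT2-like cells, from 0.635 to 0.989 in C1q macrophage-like cells and from 0.742 to 1.24 in T-like cells, but only from 0.586 to 0.600 in B-like cells. Single mt- genes differed in direction. The complex IV gene mt-Co1 was below 0 in 8 of 8 classes (median -0.34), as were the complex I genes mt-Nd3 (-0.63) and mt-Nd5 (-0.50), while mt-Co2 was above 0 in 8 of 8 (0.14). The genes mt-Nd4l and mt-Atp8 were below 0 in 7 of 7 classes (-0.75 and -1.55), and they overlap mt-Nd4 and mt-Atp6, so reads of each pair can be hard to separate.

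Every complex except complex II was higher in 8 of 8 classes. The median log2 ratio over classes was 0.49 for complex V (0.25 to 0.78), 0.43 for complex III (0.09 to 0.66), 0.34 for complex IV (0.10 to 0.71) and 0.27 for complex I (0.14 to 0.60). Complex II, which joins the chain to the citric acid cycle, was above 0 in 5 of 8 classes, with a median of 0.06 and a range of -0.54 to 0.54. The assembly factors of complex I, which build it but are not part of it, were above 0 in 4 of 8 classes (median 0.05).

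Counted gene by gene, with at least 50 UMIs over both libraries required in a class, 88 members could be compared in at least 1 class. Atp5s, Cox7b2, Cox8c and Ndufaf1 could be compared in none. This filter uses the sum of both libraries, so a low gene can pass on its higher side alone. In C1q macrophage-like cells 46 of 85 members were higher and 2 lower, where 25.9% of all genes were higher and 24.8% lower. In T-like cells 40 of 74 were higher and 0 lower, where 28.6% of all genes were higher and 18.6% lower. In dendritic-like cells 23 of 66 were higher and 0 lower, against 14.2% and 15.6% of all genes. In these 3 classes the share of higher members exceeded the background by the most.

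In the other classes the share of higher members was nearer to the background, above it in fibroblast-like cells, or below it. In AT2-like cells 15 of 74 members were higher and 2 lower (all genes 21.0% and 13.1%), a share of higher members near the background. In fibroblast-like cells 15 of 82 were higher (18.3%) and 1 lower (all genes 12.3% and 21.8%), a share of higher members above the background. In ciliated-like cells 6 of 72 were higher and 1 lower (all genes 12.4% and 14.5%). In vascular endothelial-like cells 4 of 84 were higher and 1 lower (all genes 10.5% and 19.1%), and in B-like cells 4 of 39 were higher and 2 lower (all genes 14.8% and 22.2%). In these last 3 classes fewer members than genes of all kinds were called in either direction. In all 8 classes together, 153 member ratios were called higher and 9 lower, and 67 and 7 without the C1q macrophage-like and T-like classes. These pooled counts have no single background and are to be read only beside the all-gene shares of each class given above.

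**Figure D2:**
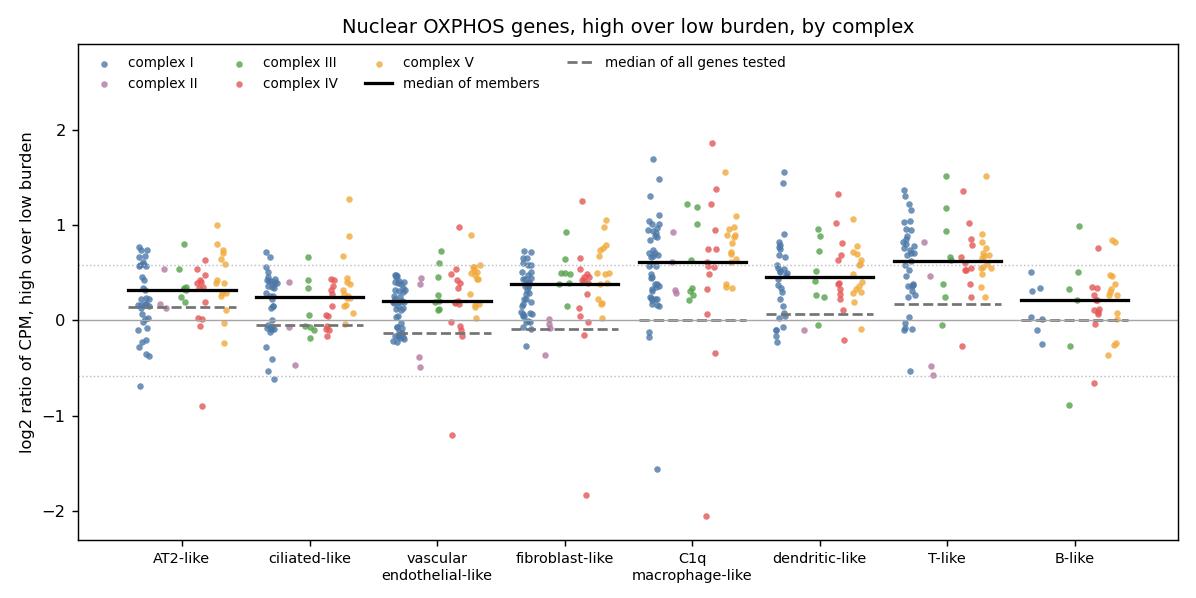
Log2 ratio of high over low burden for each member with at least 50 UMIs, by class, coloured by complex, with the median of the members (solid line), the median of all genes tested (dashed line) and the 1.5-fold bounds (dotted lines). The member median lies above the all-gene median in each of the 8 classes, by the most in C1q macrophage-like cells (0.62 against 0.00).

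The median member ratio was above the median of all genes in every class compared. The member median was 0.63 in T-like cells (all genes 0.17), 0.62 in C1q macrophage-like cells (0.00), 0.45 in dendritic-like cells (0.06) and 0.39 in fibroblast-like cells (-0.09). It was 0.32 in AT2-like cells (0.14), 0.24 in ciliated-like cells (-0.04), 0.22 in B-like cells (0.01) and 0.20 in vascular endothelial-like cells (-0.13). Of the 39 members compared in all 8 classes, 38 had a median ratio above 0 and 21 were above 0 in every class. Of the 456 genes of all kinds compared in all 8 classes, 23.7% were above 0 in every class.

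In complex V, 12 of 15 compared members were higher in C1q macrophage-like cells (all genes 25.9%) and 9 of 15 in T-like cells (all genes 28.6%). Atp5g1 (chr11:96068852-96075670, minus strand, GENCODE M21), one of the 3 genes of subunit c shown above, was past 1.5-fold in 7 of 8 classes. Its level went from 231 to 677 CPM (UMIs per 1000000 UMIs of the class) in C1q macrophage-like cells, a log2 ratio of 1.55 (1.19 to 1.94), and from 253 to 722 CPM in T-like cells (1.51). In the structural and epithelial classes the step was close to 1, from 209 to 418 CPM in AT2-like cells (1.00, 0.67 to 1.33), from 249 to 518 CPM in fibroblast-like cells (1.06) and from 220 to 532 CPM in ciliated-like cells (1.28). Vascular endothelial-like cells went from 262 to 488 CPM (0.90) and dendritic-like cells from 210 to 439 CPM (1.06). B-like cells, with 294 and 410 CPM (0.48, -0.21 to 1.20), were the exception.

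The 3 subunit c genes encode the same mature protein, so their mix could be compared as shares of their summed UMIs, with the limit that levels of different genes depend on how well each is captured. The Atp5g1 share was higher at high burden in 8 of 8 classes, by 5.17 to 15.8 percentage points, and the 95% binomial intervals were apart in 6 of 8. It was 32.6% and 46.0% in C1q macrophage-like cells, 29.6% and 43.5% in T-like cells, and 25.4% and 41.2% in ciliated-like cells. The intervals overlapped in fibroblast-like cells (42.4% and 47.6%) and B-like cells (29.2% and 36.1%). The share in metastatic-like cells was 50.8%, above that of every other class, so the RNA of carcinoma cells described above moves with this result as well, and its part was not tested. The Atp5g2 share was lower in C1q macrophage-like cells (52.1% to 38.4%) and T-like cells (50.4% to 38.2%), while the Atp5g3 share in C1q macrophage-like cells was 15.3% and 15.7%.

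Atp5h (chr11:115415689-115419962, minus strand), which encodes subunit d of the peripheral stalk of complex V, was also called higher in 7 of 8 classes, of which the ciliated-like ratio turned to -0.41 in cells of 5000 to 8000 UMIs. It went from 439 to 865 CPM in fibroblast-like cells (log2 ratio 0.98), from 387 to 721 CPM in C1q macrophage-like cells (0.90) and from 453 to 812 CPM in B-like cells (0.84). Vascular endothelial-like cells (601 to 902 CPM, 0.58) lay just inside the 1.5-fold bound. Atp5l, the complex V member with the highest mean of both libraries (710 CPM in all kept low-burden cells and 1425 CPM in high-burden cells), was above 0 in 8 of 8 classes, with a median of 0.61.

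In complex IV the member with the largest median ratio was Cox5a (chr9:57521274-57532426, plus strand), a nuclear subunit on the matrix side, at 1.12. Its level went from 365 to 952 CPM in C1q macrophage-like cells (log2 ratio 1.38), from 336 to 863 CPM in T-like cells (1.36) and from 178 to 426 CPM in fibroblast-like cells (1.26). It differed little in B-like cells, with 396 and 416 CPM (0.07), and ciliated-like cells stood at 513 and 688 CPM (0.42). Cox7b, a small membrane subunit, went from 134 to 486 CPM in C1q macrophage-like cells (1.86) and had a median of 0.63 over classes. Cox4i1, the main isoform of subunit 4 and the complex IV member with the highest mean of both libraries (1052 and 1599 CPM in all kept cells), was above 0 in 8 of 8 classes with a median of 0.40, and was past 1.5-fold in 1.

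In complex III the ratio was largest for Uqcrq (chr11:53427922-53430831, minus strand), a small subunit, with a median of 0.87 and 7 of 8 classes past 1.5-fold. It went from 206 to 591 CPM in T-like cells (1.52), from 238 to 556 CPM in C1q macrophage-like cells (1.22) and from 249 to 355 CPM in B-like cells (0.51), the class not past the bound. Uqcr11, the complex III member with the highest mean of both libraries (431 and 748 CPM), went from 192 to 382 CPM in B-like cells (0.99).

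Complex I had many small steps. In C1q macrophage-like cells 21 of 43 compared members were higher (all genes 25.9%) and in T-like cells 19 of 35 (all genes 28.6%). The largest in dendritic-like cells were Ndufs4 (44.8 to 132 CPM, 1.56) and Ndufv3 (61.6 to 167 CPM, 1.44), both accessory subunits on the NADH-oxidizing arm. Both rest on few UMIs, since this class held 357322 UMIs of all genes at low burden and 257600 at high burden. Ndufs4 only just met the filter of 50 UMIs, with most of them from the high-burden library. Ndufv3 also went from 101 to 281 CPM in C1q macrophage-like cells (1.49), and Ndufb9, an accessory membrane subunit, from 156 to 402 CPM in T-like cells (1.36). Ndufa2 had the highest mean of both libraries in complex I (441 and 767 CPM) and was above 0 in 7 of 8 classes. The assembly factor Ndufaf6 rests on 1 low-burden UMI against 99 in C1q macrophage-like cells, and the interval of its ratio ran from -0.82 to 7.01.

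A small set of members went against the rest. Ndufa3, an accessory complex I subunit, was below 0 in 7 of 7 classes, with a median of -0.27. Its level went from 399 to 248 CPM in AT2-like cells (-0.69), from 367 to 255 CPM in ciliated-like cells (-0.53) and from 278 to 192 CPM in T-like cells (-0.53), of which only the AT2-like step passed 1.5-fold. Sdha, the flavoprotein of complex II, was above 0 in 2 of 6 classes (median -0.41). It stood at 125 and 89.1 CPM in vascular endothelial-like cells and at 108 and 72.6 CPM in T-like cells, against 63.3 and 79.2 CPM in C1q macrophage-like cells. Sdhb, the iron-sulfur subunit that Sdha passes electrons to, had a median of 0.45, with 173 and 306 CPM in T-like cells (0.82, but -0.57 in cells of 5000 to 8000 UMIs) and 175 and 268 CPM in C1q macrophage-like cells (0.62). The membrane anchors Sdhc and Sdhd had medians of 0.01 and 0.28.

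The other calls in the lower direction fell in different classes. Ndufs1, a core iron-sulfur subunit of complex I, went from 55.8 to 19.0 CPM in C1q macrophage-like cells (-1.56). The low-burden value rests on few UMIs, from 57 cells that held 268698 UMIs of all genes. Ndufb3 went from 220 to 143 CPM in ciliated-like cells (-0.62). Ndufa4 and Uqcrb were lower in B-like cells, at 657 and 416 CPM (-0.66) and at 453 and 246 CPM (-0.88). The remaining calls in the lower direction were the isoforms Cox6b2, Cox6a2 and Cox8b, described next.

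The tissue-restricted paralogs Ndufa4l2, Cox4i2 and Cox6b2 had the widest ranges over low-burden classes, and Cox6b2 and Cox4i2 over high-burden classes, among members with at least 200 UMIs. Cox4i2, the oxygen-sensitive lung isoform of subunit 4, made up 8.49% (binomial interval 6.43% to 11.0%) of Cox4 UMIs in low-burden smooth muscle-like cells, 53 of 624 UMIs, at 120 CPM. In vascular endothelial-like cells its share was 5.90% (5.08% to 6.81%) at 57.2 CPM in the low-burden library and 6.11% (5.14% to 7.19%) at 83.5 CPM in the high-burden library, and these intervals overlapped. It was 0.317% in metastatic-like cells. Apart from NK-like cells (4.92% of 61 UMIs) and low-burden T-like cells (2.51%), the share was at most 1.85% in the other classes.

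Ndufa4l2, known as a hypoxia-induced relative of Ndufa4, had 41.1 and 40.6 CPM in fibroblast-like cells of the low- and high-burden libraries, 51.9 CPM in smooth muscle-like cells, and 28.0 and 26.8 CPM in vascular endothelial-like cells. Its share of the pair was 9.08% and 6.36% in fibroblast-like cells and 0.363% in metastatic-like cells. In both classes found in both libraries the step between libraries was within counting error.

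**Figure D3:**
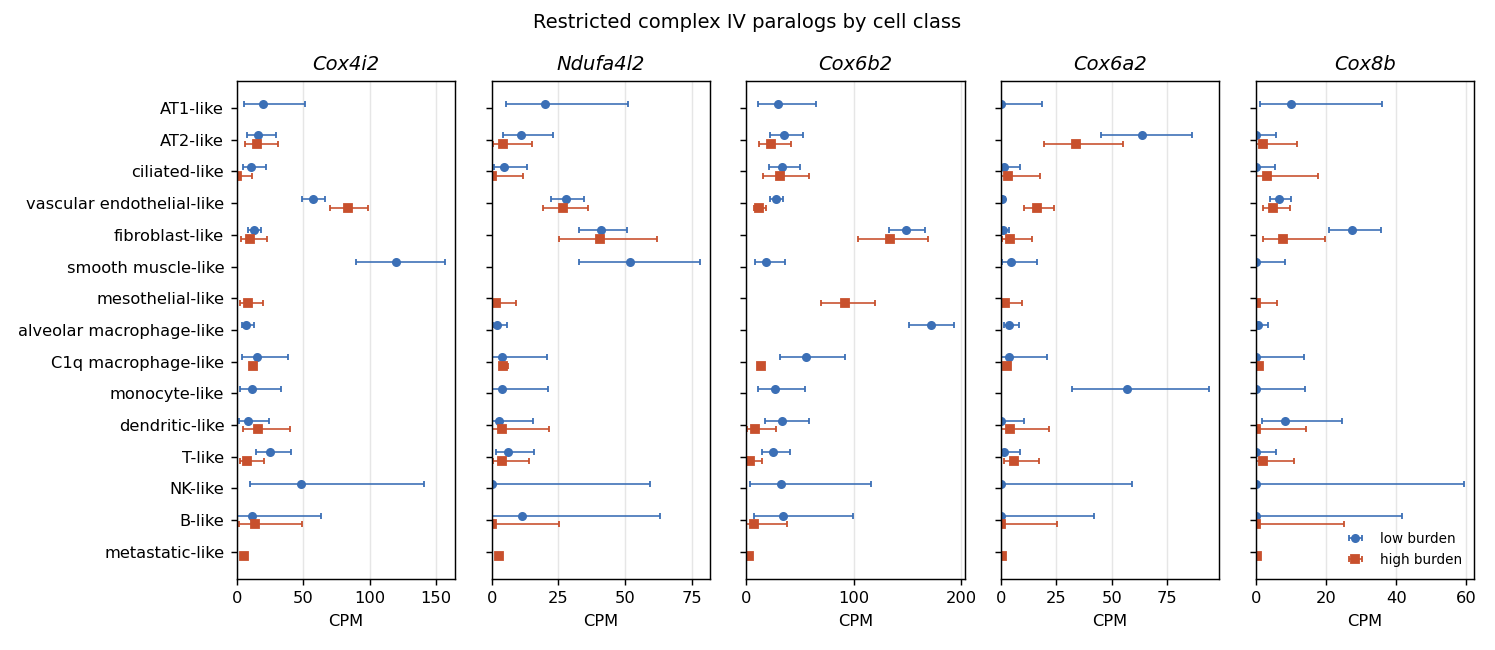
Level of the tissue-restricted paralogs Cox4i2, Ndufa4l2, Cox6b2, Cox6a2 and Cox8b in CPM, by cell class and library, with exact 95% Poisson intervals. Each gene stands high in few classes, such as Cox4i2 in smooth muscle-like (120) and vascular endothelial-like cells, and Cox6b2 in alveolar macrophage-like (172) and fibroblast-like cells.

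Pericytes, the contractile cells that wrap small vessels, are known to carry Cox4i2 and Ndufa4l2, and their gate held only 16 low-burden cells and 1 high-burden cell, too few for a class. All kept cells were therefore split by how many of 8 pericyte markers they carried, a split chosen after seeing the data. Cox4i2 stood at 12.0 CPM in low-burden cells with none, 20.6 CPM with 1 or 2 and 654 CPM with at least 3. The high-burden values were 7.99, 7.65 and 298 CPM. Ndufa4l2 went from 9.63 to 21.2 to 238 CPM at low burden, and from 3.34 to 4.04 to 169 CPM at high burden. The 116 low-burden cells with at least 3 markers were 4.69% of the kept cells and held 8.01% of UMIs of all genes. They held 79.8% of all Cox4i2 UMIs and 61.7% of Ndufa4l2 UMIs. The 90 such high-burden cells were 2.97% of cells, with 2.96% of UMIs of all genes, and held 53.7% and 58.4%.

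The vascular signal followed the same split. In vascular endothelial-like cells with no pericyte marker, Cox4i2 stood at 14.1 CPM (low) and 15.8 CPM (high), against 368 CPM in the 25 cells and 550 CPM in the 12 cells with at least 3. Without cells that met another gate, the Cox4i2 share of vascular endothelial-like cells was 1.82% and 1.30% in place of 5.90% and 6.11%, and that of smooth muscle-like cells 5.68% in place of 8.49%. Ndufa4l2 in fibroblast-like cells behaved otherwise, with 31.4 CPM in low-burden cells with no pericyte marker and 54.2 CPM in those with 1 or 2.

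**Figure D4:**
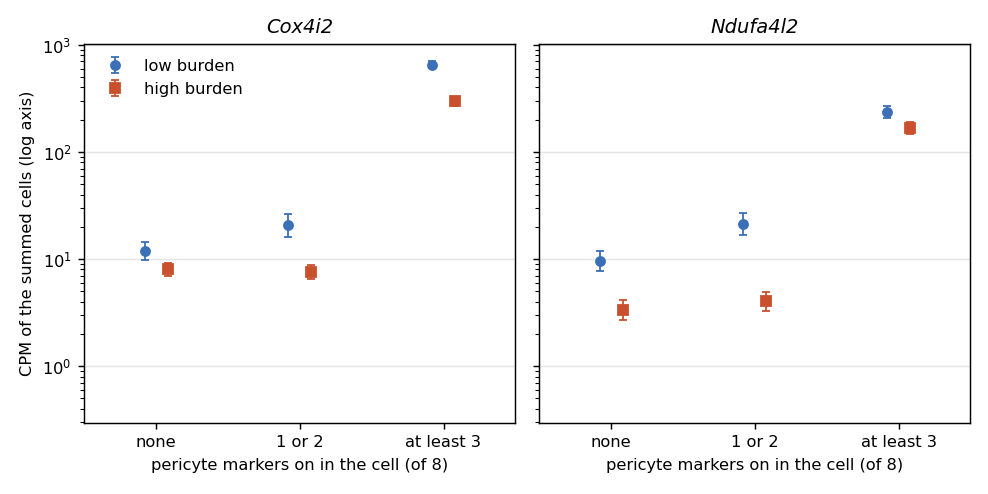
Level of Cox4i2 and Ndufa4l2 in CPM (log axis) in all kept cells with none, 1 or 2, or at least 3 of 8 pericyte markers, in each library, with exact 95% Poisson intervals. Both genes are higher in cells with at least 3 markers in both libraries, with Cox4i2 at 654 against 12.0 in the low-burden library.

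Cox6b2, usually described as the testis isoform of subunit 6b, was found in lung stroma and macrophages. It stood at 149 and 133 CPM in fibroblast-like cells (24.7% and 17.6% of the Cox6b1 and Cox6b2 UMIs), 172 CPM in alveolar macrophage-like cells (16.5%) and 91.8 CPM in mesothelial-like cells (10.2%), but at 2.82 CPM in metastatic-like cells (0.398%). In C1q macrophage-like cells it was lower at high burden, 55.8 against 13.5 CPM (log2 ratio -2.05), as in vascular endothelial-like cells (27.3 and 11.8 CPM, -1.21). With 15 UMIs behind the low-burden C1q macrophage-like value, its share of the pair was 8.72% and 1.62%.

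Cox6a2, the muscle isoform of subunit 6a, stood at 63.4 CPM in low-burden and 33.9 CPM in high-burden AT2-like cells (-0.90), where it made up 14.3% and 8.51% of the Cox6a UMIs. It was also at 56.9 CPM in monocyte-like cells (10.6%, 15 UMIs). In vascular endothelial-like cells Cox6a2 went the other way, from 0.325 CPM (1 UMI) at low burden to 16.2 CPM (26 UMIs) at high burden. Its share there was 0.0558% (0.00141% to 0.311%) and 3.02% (1.98% to 4.39%), on too few UMIs for a call. Cox8b stood at 27.5 and 7.74 CPM in fibroblast-like cells (4.42% and 1.18% of Cox8 UMIs). Cox7a1 was at 1.94% of its set in alveolar macrophage-like cells. In C1q macrophage-like cells it had 0 UMIs at low burden, where the Poisson interval reaches 13.7 CPM, and 9.84 CPM at high burden, so no difference was detectable at this depth. Cox7b2 had 1 UMI at low and 16 UMIs at high burden over all kept cells. Cox8c had 0 UMIs in both libraries, which allows up to 0.278 CPM in the low-burden and 0.0717 CPM in the high-burden library.

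Some ordinary subunits and assembly factors also had wide ranges over classes, but their low ends rest on few UMIs in small classes. High-burden dendritic-like cells held 257600 UMIs of all genes and low-burden NK-like cells 62301, and Ndufa5 had 3 UMIs in low-burden B-like cells. The counting error of these ranges was not computed. In the high-burden library the assembly factor Ndufaf1 ran from 3.88 CPM in dendritic-like to 58.4 CPM in mesothelial-like cells, a log2 range of 3.91. The assembly factor Ndufaf5 had a range of 2.92. Ndufa5, a complex I accessory subunit, ranged from 34.0 CPM in B-like to 296 CPM in smooth muscle-like cells of the low-burden library. Ndufaf3, a complex I assembly factor, was at 137 CPM in low-burden ciliated-like cells against 16.1 CPM in NK-like cells, and at high burden it was again highest in ciliated-like cells, at 131 CPM, against 19.4 CPM in dendritic-like cells. Ndufab1, the mitochondrial acyl carrier protein that is also a complex I subunit, was at 301 CPM in ciliated-like and 48.2 CPM in NK-like cells of the low-burden library.

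Within the high-burden lung, carcinoma cells were compared with the cells around them. The nuclear members made up 3.60% of UMIs in the 961 metastatic-like cells and 3.12% in all other kept cells, a log2 ratio of 0.21 (0.20 to 0.21, but 0.10 with median-of-ratios scaling), and the mt- genes 35024 CPM against 32019 CPM, a log2 ratio of 0.13. The metastatic-like level was above that of each of the 9 other classes, from a log2 ratio of 0.19 over T-like cells to 0.69 over B-like cells, with C1q macrophage-like cells at 0.29 and fibroblast-like cells at 0.45. It was above 0 for 9 of 9 classes as reported and under the 11 alternatives run. The depth band and the subtraction of the metastatic-like profile were not among these. Metastatic-like cells had a median of 22573 UMIs, against 6230.5 (B-like) to 18893 (mesothelial-like) in the 9 other classes. The low-burden library held 0 metastatic-like cells. The ungated cells in the comparison group carry carcinoma markers, and markers restricted to metastatic-like cells stood over all other kept cells at 33.3% of their level in metastatic-like cells.

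Few single members were past 1.5-fold between metastatic-like cells and all other kept cells of the high-burden library. Of 90 members compared, 2 were higher and 6 lower by at least 1.5-fold, where 11.4% of all 12773 genes were higher and 24.2% lower. The member median was 0.16 and that of all genes 0.03. The restricted markers stood at 33.3% of their metastatic-like level in this comparison group, against 7.51% (dendritic-like) to 26.9% (T-like) in the other high-burden classes. The part of carcinoma RNA in these counts was not tested, so they do not show how single members differ from each class. The 2 higher members were Ndufaf2, a complex I assembly factor (42.1 against 69.3 CPM, 0.72), and Atp5h (1233 against 1939 CPM, 0.65). All 6 lower members were of complex IV in the grouping used here, and the 5 lowest were the restricted paralogs Cox6a2 (-3.34), Cox6b2 (-2.59), Cox8b (-2.53), Ndufa4l2 (-2.28) and Cox4i2 (-2.24).

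By complex, the metastatic-like excess was uneven. Complex V stood from 0.27 above T-like cells to 0.75 above B-like cells and complex I from 0.18 to 0.85, while complex IV stood at 0.02 over T-like cells (-0.02 to 0.07) and up to 0.50. Complex III ranged from 0.16 to 0.62, and complex II from 0.16 to 1.14 on few UMIs. As a share of the nuclear UMIs, complex V was 31.8% in metastatic-like cells against 26.3% to 30.5% in the other high-burden classes, and complex IV was 26.4% against 27.8% to 32.2%. The mt- genes ranged from -0.19 over ciliated-like cells to 0.47 over T-like cells.

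**Figure D5:**
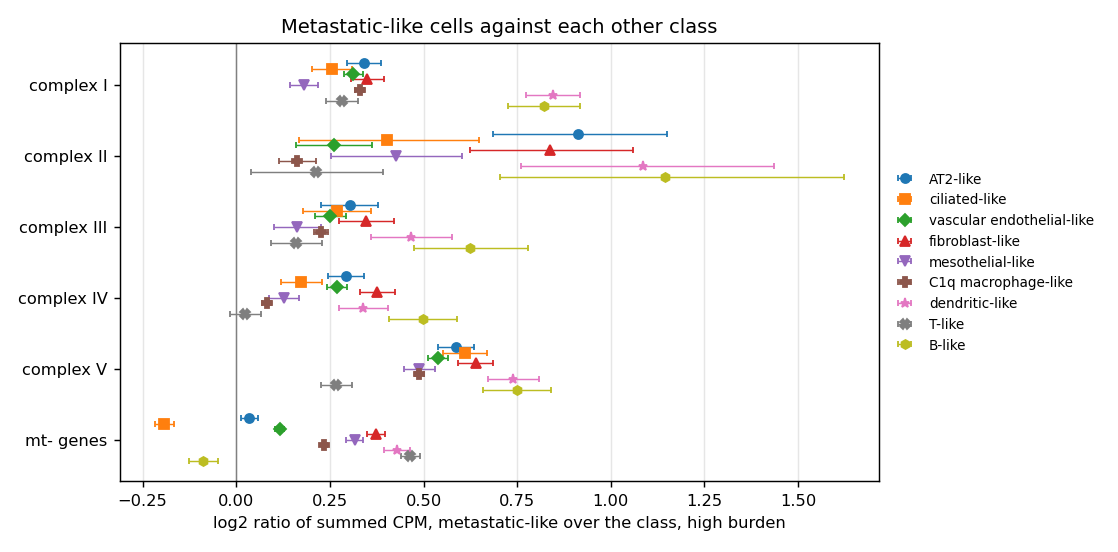
Log2 ratio of the summed level in metastatic-like cells over each of the 9 other high-burden classes, for complexes I to V and the mt- genes. Complex V is above 0 for every class (0.27 to 0.75), complex IV lies nearest to 0 over T-like cells (0.02), and the mt- genes fall on both sides of 0.

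Dividing carcinoma cells differed from non-dividing ones in mt- rather than in nuclear genes. Metastatic-like cells were split by the genes of a 15-gene cell division list detected after thinning to 5000 UMIs, with 374 cycling cells (at least 4 genes, median 28369 UMIs) and 323 non-cycling cells (at most 1, median 17870 UMIs). The nuclear members made up 3.62% and 3.58% of UMIs (log2 ratio 0.02), and the mt- genes 3.17% and 3.96% (-0.32). Of 13 mt- genes, 0 were called higher and 0 lower, and 1 had a ratio above 0. The 2 groups also differed in depth, and the part of depth in the mt- step was not tested. Another 264 cells lay between, and 168 cells lay 1 gene either side of the upper bound, so the split is a range and not a cell type. Of 86 members 1 was higher and 1 lower, where 10.6% of all genes were higher and 8.59% lower. The higher one was the complex I assembly factor Ndufaf4 (46.4 to 75.9 CPM, 0.71) and the lower one Ndufaf1 (-0.60). Complex II was at 0.27 and complexes III and IV at 0.00 and -0.05.

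Other genes of the pathway were read from fixed lists, each by its summed level over the 8 classes and its calls. Of all genes, 25.9% were higher and 24.8% lower in C1q macrophage-like cells, 28.6% and 18.6% in T-like cells, 10.5% and 19.1% in vascular endothelial-like cells, 12.4% and 14.5% in ciliated-like cells and 21.0% and 13.1% in AT2-like cells, as above. The partners that the symbol rule misses, such as cytochrome c and the ADP/ATP carriers, had a median log2 ratio of high over low burden of 0.51, with 6 of 11 higher in C1q macrophage-like cells, 7 of 9 in T-like cells and 7 of 11 in vascular endothelial-like cells, and none lower in these. The mitochondrial ribosome, which translates the mt- mRNAs, stood at 0.40, with 48 of 76 members higher and 3 lower in C1q macrophage-like cells, 35 of 50 higher in T-like cells and 17 of 40 in AT2-like cells. The citric acid cycle stood at 0.26, with 7 of 16 higher and 1 lower in C1q macrophage-like cells and 4 of 9 higher in T-like cells. The mtDNA expression list stood at 0.34, complex IV assembly at 0.05 and the biogenesis regulators at -0.17, the last with at most 9 genes compared in any class. Glycolysis stood at 1.14, above all of these, with 13 of 18 higher in C1q macrophage-like cells, 7 of 9 in T-like cells and 11 of 16 in vascular endothelial-like cells, and none lower in these. The cytosolic ribosome set was taken by symbol, as the 113 genes beginning with Rpl or Rps, so it can hold genes that are not ribosomal proteins. It stood at 0.36, with 23 of 101 higher and 15 lower in C1q macrophage-like cells and 5 of 96 higher and 18 lower in T-like cells. In ciliated-like cells 51 of 89 were higher and 7 lower, and in vascular endothelial-like cells 40 of 101 higher and 14 lower.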

How the data were processed

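Single-cell RNA was measured in 1 low-burden and 1 high-burden mouse lung. Per the labels and methods, the authors processed reads with Cell Ranger 2.0.2 on mm10 with the PyMT sequence added. The deposited values are raw UMI counts per gene and barcode, in whole numbers. Whether they precede the authors' aggregation of libraries, and the annotation release, are not given in the sources used here.

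Cells with 1000 to 7000 genes and at most 10% mt- UMIs were kept. A class needed at least 3 of its markers detected and a score 1.5 times that of the next class, and at least 20 cells in a library. Of 147 markers, 4 (Ighm, Trac, Trbc1 and Trbc2) are not in the files used here. Doublets were kept. UMIs were summed per class and library, and levels are CPM, UMIs per 1000000 UMIs of the class. They are not per length, so genes are not compared by level, and the shares of paralogs carry this limit. Ratios have exact conditional binomial intervals, levels exact Poisson intervals and shares exact Clopper-Pearson intervals at 95%, all for counting error only. Genes with at least 50 UMIs over both arms were compared, and a count of 0 allows up to 3 counts.

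The members and lists were chosen with earlier results of these data known, and the scoring rule of the gates, the split by pericyte markers and 4 of the alternatives were set after the data were seen. The genes named were the highest of each complex, the paralog sets, the 3 highest and 3 lowest ratios of each class, the 5 and 5 of metastatic-like over other cells, the 3 and 3 of cycling over non-cycling cells, and the 6 with the widest ranges. Ndufa3, the 4 Sdh genes, Atp5h, Cox5a, Uqcrq and the mt- genes singled out were in part chosen after their values were seen. Members with pseudogene copies are uncertain where reads could be split between them. Promoter motifs were searched as exact letters on both strands, and the motif searches draw on RefSeq windows of GRCm38.p6. Members with no promoter window included Cox4i1, Cox4i2, Cox6a2, Cox6c, Cox8c, Ndufa2, Ndufa4l2, Ndufaf6, Ndufb9, Ndufs1, Sdhc, Uqcrb, Uqcrc2, Uqcrq and Atp5a1. The ratio step was tested on simulated data. Of genes simulated at 2-fold, 98% passed 1.5-fold in the vascular endothelial-like comparison (8239 genes) and 95% in the B-like one (514 genes), with 3.99% and 6.05% of unchanged genes. The simulation drew Poisson counts from 1 pooled profile, so it holds counting error only. Differences between cells or mice are left out, and these shares are not error rates of the calls. Python 3.11.15, numpy 2.4.6, scipy 1.17.1, pandas 2.3.3 and matplotlib 3.10.9 were used.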

Additional observations from a re-analysis of the deposited data

Results flagged for a closer look

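Ndufa4 and Uqcrb moved in opposite directions between classes at high against low burden. Ndufa4, a subunit of complex IV, had a log2 ratio of 0.75 in C1q macrophage-like cells and 0.79 in T-like cells but -0.66 in B-like cells. Uqcrb, a subunit of complex III, had 0.64 in T-like cells and -0.88 in B-like cells. Each was past 1.5-fold in both directions, with 1 library per group, and the difference was not tested. The B-like class held 23 and 22 cells.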

How the results depend on the processing

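No paired analysis was possible because each group has 1 library, and no replicate could be left out for the same reason. The median log2 ratio of the nuclear sum, 0.36 as reported, was 0.29 with median-of-ratios scaling, 0.31 with the mean of per-cell shares, 0.22 in cells of 5000 to 8000 UMIs, 0.24 with the metastatic profile subtracted and 0.43 without cytosolic ribosome genes in the total. Subtracting the metastatic profile and the last denominator, like the depth band and leaving out 2 classes, were chosen after seeing the data. By class, AT2-like cells were at 0.13 with median-of-ratios scaling and B-like cells at -0.01 in the depth band, on 3 low-burden cells. That scaling moved the median of all genes by 0.20 in AT2-like, 0.25 in T-like, 0.14 in dendritic-like, 0.12 in fibroblast-like, 0.11 in B-like and 0.11 in the metastatic-like comparison. The mt- median, -0.07 as reported, was 0.020 with no cell filter, -0.13 with per-cell shares, -0.13 after thinning to 2000 UMIs, -0.14 without cells of another gate, -0.12 in the depth band, -0.12 with the metastatic profile subtracted and 0.018 without ribosome genes.

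The low-burden range, smooth muscle-like over dendritic-like (0.67), was 0.77 with median-of-ratios scaling, 0.73 thinned, 0.80 without cells of another gate, 0.75 with free RNA subtracted, 0.86 as a median over members and 0.47 without ribosome genes. The high-burden range, metastatic-like over B-like (0.69), was 1.00 with median-of-ratios scaling, 0.79 with free RNA subtracted and 0.38 without ribosome genes. Metastatic-like over other cells (0.21) was 0.21 without mt- genes, 0.10 with median-of-ratios scaling, 0.27 with per-cell shares, 0.26 thinned, 0.19 without cells of another gate, 0.23 with free RNA subtracted, 0.16 as a median over members and 0.25 without ribosome genes. Cycling over non-cycling (0.02) was 0.0057 without mt- genes, -0.0044 with median-of-ratios scaling, 0.034 with per-cell shares, 0.028 without cells of another gate, 0.057 as a median over members and 0.043 without ribosome genes.

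The 153 higher calls were 34 at 2-fold and 67 without C1q macrophage-like and T-like cells. Shares of all genes were not computed for these alternatives, so the counts show only how the number of calls moved. The 9 lower calls were 47 with no filter on UMIs, 1 at 200 UMIs, 4 at 2-fold, 21 without cells of another gate and 15 with the metastatic profile subtracted. The Cox4i2 share without cells of another gate was 5.68% in smooth muscle-like and 1.82% and 1.30% in vascular endothelial-like cells. In cells of 5000 to 8000 UMIs the ratio changed sign for Atp5g3 in T-like (-1.16), Atp5h in ciliated-like (-0.41), Cox7b in B-like (-0.32), Ndufa5 in ciliated-like (-0.74), Ndufv3 in fibroblast-like (-0.059) and Sdhb in T-like cells (-0.57), and without cells of another gate for Ndufa5 in ciliated-like cells (-1.004). The cause was not tested. Of the other values of single genes and classes, 2661 stayed within their counting interval and 498 moved beyond it, as did 50 and 45 of the summaries. Depth limits the B-like, NK-like and dendritic-like classes most, where many members had too few UMIs to compare.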
